A study of Homo sapiens with 6 samples.

Results

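The ZNF genes make up the main series of human C2H2 zinc finger genes, and 184 of them were expressed in AsPC-1 cells at the level set here. AsPC-1 is an established human line grown from a pancreatic adenocarcinoma. The table of gene levels held 26228 rows, of which 533 were ZNF rows without a hyphenated suffix, and a row was kept when it reached 3 FPKM in at least 3 of the 6 libraries. FPKM is the number of fragments of a gene scaled for transcript length and for the mapped reads of the library. One group was 3 samples given DON (6-diazo-5-oxo-L-norleucine, an analog of glutamine that blocks enzymes that use glutamine) for 24 h, and the other was 3 samples given vehicle for 24 h. Both groups were AsPC-1 cells in medium without serum, so each is 1 cell line in 1 medium at 1 time, and poly(A) RNA was read in single 75-base reads. The labels do not say that the 3 samples of a group came from separate cultures, so a p-value here sets a change against a spread that can be wholly technical.

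A C2H2 zinc finger is a short fold held by a zinc ion between a pair of cysteines and a pair of histidines, and most ZNF proteins carry a row of such fingers that read DNA in sequence. Many also carry a KRAB box, which binds the scaffold protein TRIM28 (KAP1). TRIM28 then brings in the histone methyltransferase SETDB1, HP1 proteins and deacetylases, and the DNA around the bound site, often a retroelement, is silenced. Others carry a SCAN box, through which zinc finger proteins pair with each other, and some ZNF proteins bind RNA or ribosomes or sit in chromatin complexes without a KRAB box. Human KRAB genes are densest in clusters on chromosome 19.

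The libraries held epithelial markers and few of other cell types. All 8 pancreatic epithelial markers with a value in every library reached 1 FPKM in all 6, with summed levels of 2945 to 4116 FPKM in DON and 3511 to 4516 FPKM in vehicle. Of these, CLDN4, MUC1 and SOX9 were lower in DON. Of 16 markers of immune, endothelial, stromal, endocrine, acinar and liver cells, CD68 alone reached 1 FPKM in all 3 DON libraries, CD68 and ACTA2 did so in all 3 vehicle libraries, and their sums were 27.8 to 41.1 FPKM in DON and 18.9 to 29.99 FPKM in vehicle. CD3E, INS, GCG and AMY2A were listed at the floor of 0.01 in every library, and the part of CD68 in any result was not tested. ASNS, a target of the amino acid response, was 8.51-fold higher in DON (limma, adjusted p = 1.61e-05). FPKM keeps no read depth, and library sums of FPKM lay between 525200 and 556950. In bulk RNA, fewer cells that express a gene and less RNA of that gene per cell cannot be told apart.

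The family as a whole lay slightly higher in DON, and most of its members did not pass the test. Of the 184 members, 34 were called higher and 17 lower in DON, and 133 were not called (limma on log2(FPKM + 1), Benjamini-Hochberg adjusted p under 0.05 over 11471 tested genes). The share called higher was 18.5%, against 18.3% of all tested genes, which is the background. The share called lower was 9.24%, against 20.6% of all tested genes. Among the 9715 other genes that met the same level rule, 19.8% were called higher and 21.5% lower. In either direction 27.7% of members were called, against 38.9% of tested genes and 41.3% of genes under the same level rule.

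The median log2 fold change (DON over vehicle, of FPKM + 1) was 0.09 over the members, -0.01 over all tested genes and -0.01 over the other genes of the same level rule. The middle range of the members, from the lower to the upper quartile, was -0.17 to 0.35, and 109 were above 0 and 75 below. Against other genes in the same bins of mean FPKM the median difference was 0.12, with no test since the members were chosen by their level. Members also spread less: the SD of their log2 fold changes was 0.42, against 0.59 for other genes of the same level rule, while the median standard error was 0.13 and 0.12. At least 2-fold on the FPKM + 1 scale were 6 members: ZNF165, ZNF37A and ZNF581 higher and ZNF124, ZNF488 and ZNF367 lower.

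**Figure D1:**
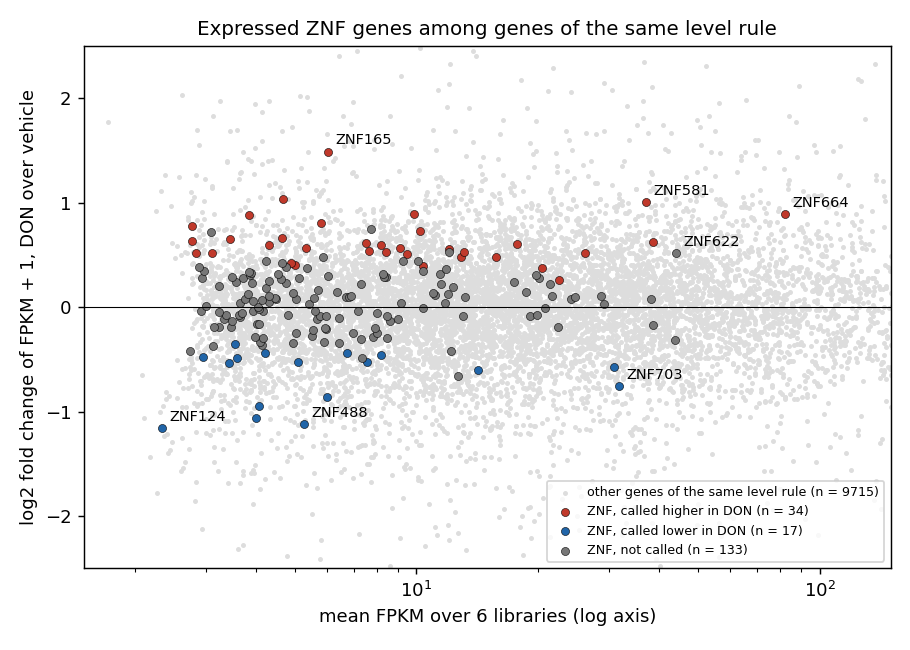
Mean FPKM over 6 libraries (log axis) against the log2 fold change of FPKM + 1, DON over vehicle, for 184 ZNF members (coloured by call) and 9715 other genes of the same level rule (pale grey; those beyond the axes are not drawn). The 34 members called higher and 17 called lower lie within the cloud of other genes, and ZNF664 stands at the highest level.

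The small median difference was present in each DON library. Relative to the mean of the vehicle libraries, the median member stood at 0.09, 0.10 and 0.11 (log2) in DON 1, 2 and 3, against -0.01, -0.03 and 0.03 in vehicle 1, 2 and 3. All 3 DON libraries lay above all 3 vehicle libraries, while the median of the other genes of the same level rule lay between -0.01 and 0.02 in the 6. The summed level of all members was 1847, 1829 and 1867 FPKM in DON, against 1662, 1625 and 1690 FPKM in vehicle. Deviations of the libraries from their group means ran with transcript GC content, upward in DON 1, vehicle 1 and vehicle 2 (Spearman's rho across genes 0.51, 0.23 and 0.31) and downward in DON 2, DON 3 and vehicle 3 (-0.42, -0.42 and -0.40). Within the first of these sets the median member changed by 0.08 (log2, DON over vehicle) and within the second by 0.08, against 0.00 and -0.01 for the other genes of the same level rule. The sets were drawn from the deviations seen in these data, and each holds 1 library of 1 group and 2 of the other.

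**Figure D2:**
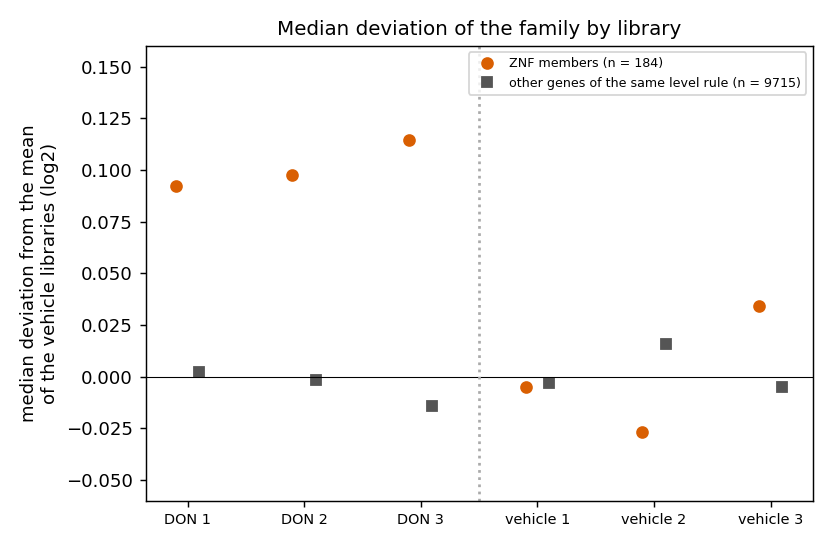
Median deviation from the mean of the vehicle libraries (log2) in each library, for 184 ZNF members (circles) and 9715 other genes of the same level rule (squares). The members stand at 0.09 to 0.11 in the 3 DON libraries and at -0.03 to 0.03 in the 3 vehicle libraries.

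By level, the difference from other genes was uneven. Of 75 members with a mean under 5 FPKM, 11 were called higher and 8 lower, with a median log2 fold change of 0.07 against -0.07 for other genes in that bin, of which 14.1% were higher and 24.0% lower. Of 59 members at 5 to 10 FPKM, 10 were higher and 6 lower, against 17.1% and 21.8% of others, and the medians were -0.04 and -0.03. Of 29 members at 10 to 20 FPKM, 7 were higher and 1 lower, against 20.6% and 22.5% of others (medians 0.22 and 0.02). Of 21 at 20 FPKM or more, 6 were higher and 2 lower, against 22.1% and 20.2% of others (0.11 and 0.01). The median member was close to other genes at 5 to 10 FPKM and above them in the other bins.

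The rule on level touches the calls in 1 respect. It let in 6 members through the 3 DON libraries alone (ZNF181, ZNF343, ZNF37BP, ZNF449, ZNF74 and ZNF862) and 7 through the 3 vehicle libraries alone (ZNF124, ZNF335, ZNF367, ZNF414, ZNF532, ZNF689 and ZNF827), and these had to differ between groups, so their values are a description, with no p from the fit of all 6 libraries. Without these 13, 28 of 171 members were called higher and 11 lower, and the median log2 fold change was 0.09. Mean levels ran between 2.34 and 82.2 FPKM with a median of 5.88, and 138 members were at 3 FPKM or more in all 6 libraries. Just inside the threshold were ZNF426 and ZNF507, whose values next to the rule (the third highest of the 6) were 3.10 and 3.12 FPKM and whose log2 fold changes were -0.04 and 0.01. Just outside were ZNF653 and ZNF182, at 2.99 and 2.98 FPKM by the same measure.

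Among the members that rose, ZNF165 changed most. ZNF165 is a SCAN zinc finger gene known as a cancer-testis antigen, expressed in testis and in some tumours. It stood at 9.30, 9.44 and 9.40 FPKM in DON, against 2.43, 2.65 and 3.04 FPKM in vehicle. The groups were far apart and the DON libraries nearly identical, and ZNF165 was 3.46-fold higher in DON (log2 fold change of FPKM + 1 1.49 ± 0.10 SE, limma adjusted p = 0.000113).

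ZNF664 had the highest level of the family and rose as well. It stood at 89.8, 109 and 124 FPKM in DON, against 54.0, 56.4 and 60.5 FPKM in vehicle. Every DON library was above every vehicle library, and the ratio of means was 1.89 (log2 fold change 0.89 ± 0.13 SE, limma adjusted p = 0.00206). Its rise alone gave 50.5 FPKM of the 189 FPKM by which the mean summed level of all members was higher in DON.

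ZNF37A, a KRAB gene on chromosome 10, stood at 4.46, 6.83 and 8.76 FPKM in DON, against 2.79, 2.15 and 3.07 FPKM in vehicle. The DON libraries spread widely without reaching the vehicle values (2.499-fold, limma adjusted p = 0.0105). ZNF37BP, a pseudogene of the same group on chromosome 10, had 3.30, 3.73 and 4.19 FPKM in DON, against 1.44, 1.52 and 2.46 FPKM in vehicle. ZNF37A shared 4.10% of its 75-base windows with transcripts of other genes and ZNF37BP 0.20%, so few of their reads could come from either.

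ZNF75D, a KRAB gene on the X chromosome, had 11.9, 13.6 and 13.7 FPKM in DON, against 4.91, 7.26 and 7.86 FPKM in vehicle, a 1.96-fold rise (limma adjusted p = 0.00569). ZNF133, a KRAB repressor on chromosome 20, was 1.91-fold higher in DON (adjusted p = 0.00494), and ZNF337 on the same chromosome was 1.75-fold higher (adjusted p = 0.0107). ZNF354A, the human counterpart of the rat kidney gene Kid-1, was 1.74-fold higher in DON (adjusted p = 0.00566). ZNF181, a KRAB gene on chromosome 19, had 5.04, 4.92 and 5.71 FPKM in DON, against 1.48, 2.97 and 2.92 FPKM in vehicle. In all 5 genes every DON library was above every vehicle library, since they were picked among called members without overlap. The level rule also required it of ZNF181. With no filter on low values, which raises the number of genes tested, ZNF37A and ZNF337 had adjusted p of 0.0793 and 0.0601.

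**Figure D3:**
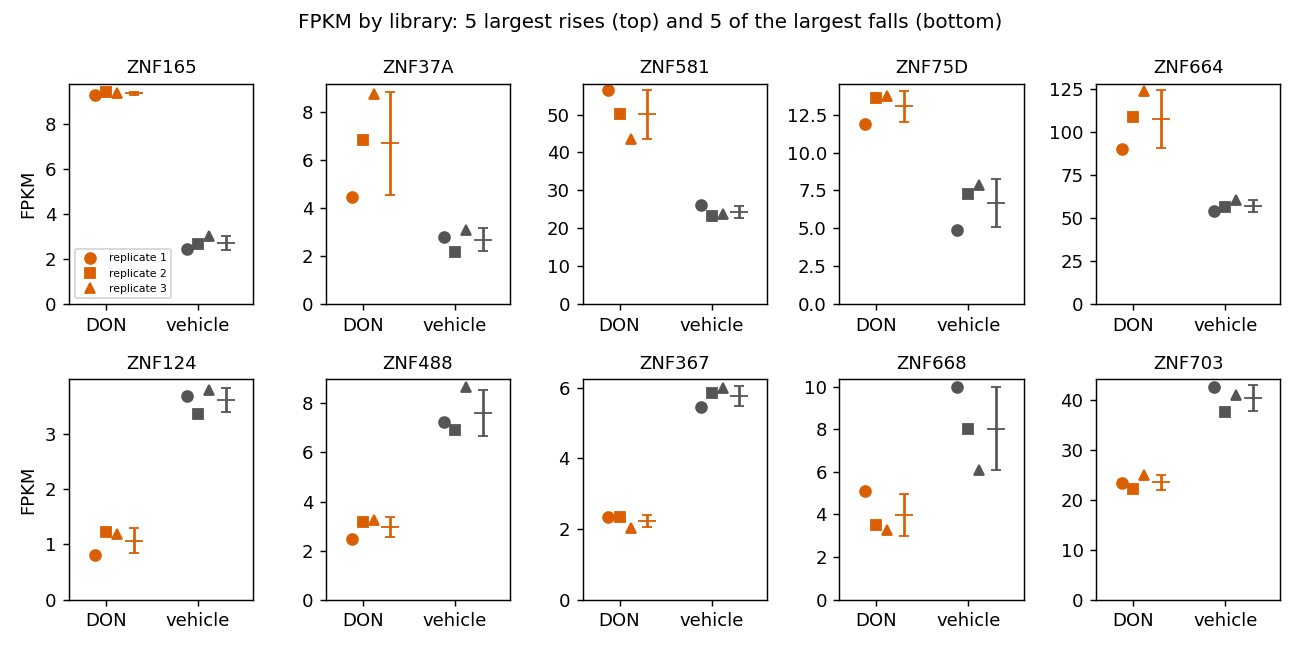
FPKM in each library (marker shape gives the replicate number; cross and bar are mean and SD, n = 3) for the 5 largest rises (top) and 5 of the largest falls (bottom), with DON left of vehicle and each axis starting at 0. In all 10 panels the DON and vehicle libraries do not overlap, since these genes were picked among called members without overlap. The level rule also required it of ZNF124 and ZNF367. ZNF165 shows the widest separation, with 9.30 to 9.44 FPKM in DON and 2.43 to 3.04 FPKM in vehicle.

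The falls were led by genes that passed the rule through vehicle or nearly so. ZNF124, a KRAB gene on chromosome 1, had 0.8004, 1.22 and 1.18 FPKM in DON, against 3.68, 3.36 and 3.79 FPKM in vehicle, 3.38-fold lower in DON. ZNF488, which binds OLIG2 in oligodendrocyte development, had 2.47, 3.15 and 3.24 FPKM in DON, against 7.23, 6.90 and 8.67 FPKM in vehicle. ZNF488 was 2.57-fold lower in DON (log2 fold change -1.12 ± 0.13 SE, limma adjusted p = 0.000828). The groups of ZNF488 lay well apart. Those of ZNF124, which entered through vehicle alone, could not overlap under the level rule.

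ZNF367, whose transcript is known to peak in the cell cycle around DNA replication, had 2.33, 2.35 and 2.04 FPKM in DON, against 5.45, 5.85 and 5.98 FPKM in vehicle, 2.57-fold lower. ZNF414 had 2.502, 2.15 and 2.68 FPKM in DON, against 6.52, 5.94 and 4.59 FPKM in vehicle. ZNF689, a KRAB gene, had 2.44, 2.81 and 2.61 FPKM in DON, against 3.71, 4.71 and 4.33 FPKM in vehicle. All 3 had their DON libraries below 3 FPKM, which the rule requires of members that entered through vehicle alone.

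ZNF703, a corepressor of the NET family known as an oncogene of luminal breast cancer, had the highest level among the members called lower. It stood at 23.3, 22.1 and 24.97 FPKM in DON, against 42.6, 37.5 and 41.0 FPKM in vehicle. That is 1.72-fold lower in DON with no overlap (log2 fold change -0.76 ± 0.09 SE, limma adjusted p = 0.000940). ZNF668, linked to DNA repair, was 2.03-fold lower (adjusted p = 0.0146), ZNF511 was 1.504-fold lower (adjusted p = 0.0147) and ZNF513, a gene of retinal development, was 1.52-fold lower (adjusted p = 0.0177). These 3 calls were lost without 1 library: ZNF668 had an adjusted p of 0.0594 and ZNF513 of 0.0749 without DON 2, and ZNF511 had 0.0515 without vehicle 1. They were also lost with no filter on low values (0.0959 for ZNF668, 0.0763 for ZNF513 and 0.0779 for ZNF511). With GC correction ZNF513 was not called (adjusted p = 0.127). ZNF511 shares 22.5% of its 75-base windows with other transcripts; 12 members share over 20% and 120 share none, and values of the 12 are uncertain.

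The pair of neighbours ZNF581 and ZNF580 on chromosome 19 moved apart. ZNF581 had 56.5, 50.1 and 43.6 FPKM in DON, against 26.2, 23.1 and 23.8 FPKM in vehicle, 2.05-fold higher in DON (limma adjusted p = 0.000805). ZNF580, studied in endothelial cells, had 13.8, 9.58 and 10.0 FPKM in DON, against 17.8, 17.2 and 16.8 FPKM in vehicle, 1.55-fold lower in DON (limma adjusted p = 0.0140, 0.0582 without DON 2 and 0.0756 with no filter on low values). Neither gene's groups overlapped, but the spans of the genes do overlap in the RefSeq annotation, and how the authors assigned reads there is not given in the sources used here. Of 36 pairs of members with no protein-coding gene between their starts, formed by 56 genes, 21 pairs had changes of the same sign and 15 of opposite sign. ZNF581 with ZNF580 was the 1 pair in which both were called.

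Of the 10 tested genes whose proteins act on ribosomes and RNA, 6 were not called, 4 were higher and 0 lower in DON, against 18.3% and 20.6% of all tested genes. The median log2 fold change was 0.18, and 2 of the 4 calls (ZNF598 and ZNF106) were held on leaving out any 1 library. ZNF598, the ubiquitin ligase that marks collided ribosomes, had 31.96, 29.97 and 31.4 FPKM in DON, against 20.6, 21.4 and 22.3 FPKM in vehicle. Its groups were tight and did not overlap, at 1.45-fold (log2 fold change 0.52 ± 0.08 SE, limma adjusted p = 0.00255). ZNF277, which binds a protein of the small ribosomal subunit, was 1.55-fold higher (adjusted p = 0.0110, 0.0514 without DON 2 and 0.0612 with no filter), and ZNF106, an RNA-binding protein studied in nerve and muscle, was 1.49-fold higher (adjusted p = 0.0103). ZNF638, a nuclear nucleic acid-binding protein that works with the HUSH silencing complex, was 1.21-fold higher (adjusted p = 0.0487), a call lost on leaving out any 1 library, with adjusted p up to 0.152, with GC correction (0.375), with no filter (0.0649) and without the intensity trend (0.0587).

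The 2 members of that list that help build the large ribosomal subunit were among the 5 highest of the family and were not called. ZNF622 had 67.0, 49.0 and 40.4 FPKM in DON, against 38.2, 41.5 and 27.7 FPKM in vehicle, and its groups overlapped (log2 fold change 0.52 ± 0.22 SE, adjusted p = 0.0983). ZNF593 had 35.1, 37.5 and 35.6 FPKM in DON, against 48.6, 38.9 and 35.5 FPKM in vehicle (log2 fold change -0.17 ± 0.12 SE, adjusted p = 0.318). ZNF207 (BuGZ), a partner of the checkpoint protein BUB3, had 30.9, 38.9 and 46.5 FPKM in DON, against 40.8, 41.3 and 64.3 FPKM in vehicle (adjusted p = 0.287). In each of the 3, 1 group's spread reached into the other's.

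Of 13 tested genes known as sequence-specific regulators, 3 (23.1%) were higher and 2 (15.4%) lower, with a median log2 fold change of 0.13. Of all tested genes 18.3% were higher and 20.6% lower. The 3 were ZNF165, ZNF395 and ZNF410, and the 2 were ZNF703 and ZNF35, the last below the level rule for members. ZNF395, a regulator linked to hypoxia and interferon signalling, had 53.1, 44.7 and 43.3 FPKM in DON, against 29.9, 33.0 and 27.6 FPKM in vehicle. It was 1.56-fold higher with no overlap (limma adjusted p = 0.00528), though 41.4% of its 75-base windows also occur in other transcripts, chiefly of FBXO16. ZNF410, known for activating the remodeller gene CHD4, was 1.31-fold higher (adjusted p = 0.0440), a call lost on leaving out 5 of the 6 libraries in turn (all but vehicle 2, adjusted p up to 0.137) with GC correction (0.103) and with no filter (0.144), and it shares 83.4% of its windows. CHD4 itself was 1.46-fold higher (adjusted p = 0.0134, 0.0507 without DON 2 and 0.0659 with no filter).

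The other regulators of that list were not called. ZNF143, which binds promoters of many housekeeping genes, had 3.70, 5.78 and 6.65 FPKM in DON, against 2.10, 3.60 and 6.69 FPKM in vehicle. Both groups spread over more than the gap between their means (log2 fold change 0.38 ± 0.34 SE, adjusted p = 0.403). Its paralog ZNF76 had a log2 fold change of -0.08, the GC-box binders ZNF148 and ZNF281 had 0.10 and 0.13, and ZNF263 and ZNF384 had 0.24 and 0.35. ZNF24, a SCAN factor, and ZNF146, a protein made almost wholly of fingers, had -0.01 and 0.08, with standard errors of 0.10 and 0.08.

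Of the 15 tested genes whose proteins sit in chromatin complexes, 11 were not called, 0 were higher and 4 (26.7%) were lower in DON, with a median log2 fold change of -0.13. The share called lower was near the 20.6% of all tested genes. Of those 4, ZNF335 and ZNF532 entered the family through vehicle alone, and without the 3 such genes of the list 2 of 12 were lower. ZNF687, ZNF592 and ZNF532 are known as partners of one another and of the reader protein ZMYND8. ZNF687 had 6.14, 4.84 and 5.74 FPKM in DON, against 7.20, 8.79 and 7.74 FPKM in vehicle (1.42-fold lower, adjusted p = 0.0245), and ZNF592 had 2.97, 2.99 and 3.01 FPKM in DON, against 3.94, 4.04 and 4.37 FPKM in vehicle (1.38-fold lower, adjusted p = 0.0224). ZNF532 had 2.09, 2.14 and 2.70 FPKM in DON, against 3.50, 3.40 and 3.93 FPKM in vehicle. All 3 were lower in every DON library than in any vehicle library, which the level rule required of ZNF532.

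ZNF335, a subunit of a histone H3 lysine 4 methyltransferase complex, was 1.55-fold lower in DON, with its 3 DON libraries below 3 FPKM. Of these 4 genes, ZNF687 and ZNF335 lost their calls without DON 2, DON 3 or vehicle 2, with adjusted p up to 0.0961 for ZNF687, which was 0.0830 with no filter on low values. ZNF592 lost its call on leaving out any of 4 libraries (DON 2, DON 3, vehicle 2 or vehicle 3; adjusted p up to 0.0863) and with quantile normalization (0.0508). ZNF532 lost its call without DON 2, ZNF335 with GC correction, and both with no filter. The NuRD partners had log2 fold changes of -0.66 (ZNF219, adjusted p = 0.0562), -0.37 (ZNF827) and -0.13 (ZNF512B). ZNF217, a CoREST and CtBP partner amplified in breast cancer, had 28.1, 31.1 and 30.5 FPKM in DON, against 26.0, 27.6 and 29.3 FPKM in vehicle (log2 fold change 0.11 ± 0.09 SE, adjusted p = 0.345). ZNF644, ZNF512, ZNF274, ZNF518A and ZNF280D had log2 fold changes from -0.09 to 0.30 and were not called.

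**Figure D4:**
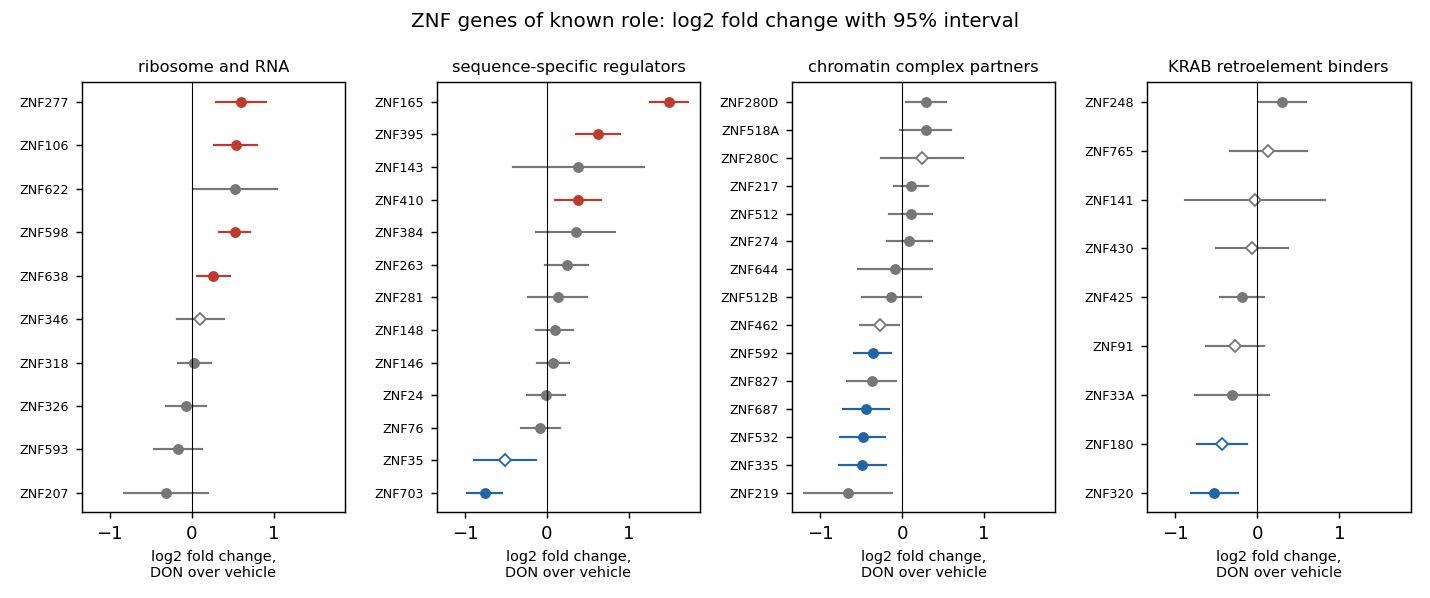
Log2 fold change of FPKM + 1 (DON over vehicle) with its 95% interval for tested ZNF genes of 4 role lists; filled circles are members, open diamonds genes below the level rule, red called higher, blue called lower and grey not called. The ribosome and RNA list holds 4 genes called higher and 0 lower, and the chromatin list 0 higher and 4 lower.

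KRAB proteins known to bind retroelements were few at this level. Of 15 listed, 9 were tested and 4 were members. Of the 9 tested, 0 were higher and 2 (22.2%) lower, against 18.3% and 20.6% of all tested genes. The member called, ZNF320, had 3.77, 3.73 and 4.51 FPKM in DON, against 6.95, 5.38 and 6.27 FPKM in vehicle (1.55-fold lower, adjusted p = 0.0148, 0.0655 without DON 2 and 0.0600 with no filter). It shares 99.5% of its 75-base windows with other transcripts, chiefly with another member, ZNF468, so its reads cannot be told apart from those of its relatives. ZNF425, ZNF248 and ZNF33A had log2 fold changes of -0.19, 0.30 and -0.31 and were not called.

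Of 24 tested genes of the silencing machinery that KRAB proteins recruit, 2 (8.33%) were higher and 7 (29.2%) lower in DON. Together 37.5% were called, near the 38.9% of all tested genes. TRIM28 had 66.7, 45.5 and 41.5 FPKM in DON, against 59.0, 65.0 and 46.8 FPKM in vehicle, and its groups overlapped (log2 fold change -0.17 ± 0.20 SE, adjusted p = 0.540). SETDB1 had 15.5, 12.8 and 12.9 FPKM in DON, against 12.1, 11.6 and 8.81 FPKM in vehicle (log2 fold change 0.32 ± 0.14 SE, adjusted p = 0.110). The largest falls were in UHRF1 (5.79-fold lower in DON, adjusted p = 0.000215), CBX5, which encodes HP1-alpha (2.31-fold, adjusted p = 0.000326), and DNMT1, the maintenance DNA methyltransferase (2.21-fold, adjusted p = 0.000439).

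ATF7IP, the stabilising partner of SETDB1, had 4.79, 4.77 and 5.02 FPKM in DON, against 7.34, 8.50 and 8.56 FPKM in vehicle (1.67-fold lower, adjusted p = 0.00257). HDAC1 was 1.33-fold lower (adjusted p = 0.0135) and MORC2 1.29-fold lower (adjusted p = 0.0219), each with an adjusted p above 0.05 on leaving out any of 3 libraries (DON 2, DON 3 or vehicle 2 for HDAC1, up to 0.0613, and DON 2, vehicle 1 or vehicle 3 for MORC2, up to 0.0957). MPHOSPH8, a HUSH subunit, was 1.41-fold higher in DON (adjusted p = 0.00355).

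By protein class, 91 members carried a KRAB box in the longest open reading frame of their transcript, 89 coding members did not, and 4 had no coding transcript. Of the KRAB members, 15 (16.5%) were called higher and 3 (3.30%) lower (ZNF124, ZNF689 and ZNF320), with a median log2 fold change of 0.09. ZNF124 and ZNF689 entered through vehicle alone and ZNF320 shares nearly all its sequence with relatives. Of the coding members without KRAB, 17 (19.1%) were higher and 14 (15.7%) lower, with a median of 0.08. The background over all tested genes was 18.3% higher and 20.6% lower. The medians were alike, and the counts of falls differed, with no test of the difference. Without members that entered through 1 group alone, 11 of 85 KRAB members were higher and 1 lower, and 16 of 83 coding members without KRAB were higher and 10 lower. The 7 SCAN members without KRAB held 3 called higher (ZNF165, ZNF397 and ZNF449) and 0 lower, and the 4 non-coding members (ZNF137P, ZNF252P, ZNF271P and ZNF37BP) held 2 higher and 0 lower. Of these called members, ZNF449 and ZNF37BP entered through DON alone. The 17 coding members with fewer than 3 recognisable fingers and neither box held 4 higher and 3 lower.

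Transcript GC content moved with both the class and the calls. The median GC content was 43.5% in KRAB members and 51.1% in coding members without KRAB. Over the members, log2 fold change and GC content had a Spearman's rho of -0.23 across 184 genes, against -0.26 across 10898 tested genes with a GC value. When members were split by GC content into groups of 62, 60 and 62, the group above 52.3% held more falls: 8 of its 62 were higher and 12 lower. Of those 12, 11 were among 39 members without KRAB, while 23 KRAB members of that group held 4 higher and 1 lower. In the group under 42.1%, 11 of 62 were higher and 1 lower, and in the middle group 15 of 60 were higher and 4 lower.

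Other genes of the same level rule followed the same slope. In the lowest of these GC ranges 27.3% of them were called higher and 14.6% lower, in the middle range 23.2% and 18.4%, and in the highest 11.8% and 28.9%. After log2 values were corrected for GC content in each library, 39 members (21.2%) were higher and 20 (10.9%) lower. In that fit 19.3% of all tested genes were higher and 22.9% lower, and 42 of the 51 member calls were held. KRAB members then held 19 higher and 8 lower and coding members without KRAB 18 higher and 12 lower, so the gap in falls between classes narrowed. With this correction the median member stood at 0.07 (log2), against -0.02 for other genes of the same level rule. The part of GC content in the remaining differences was not tested.

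**Figure D5:**
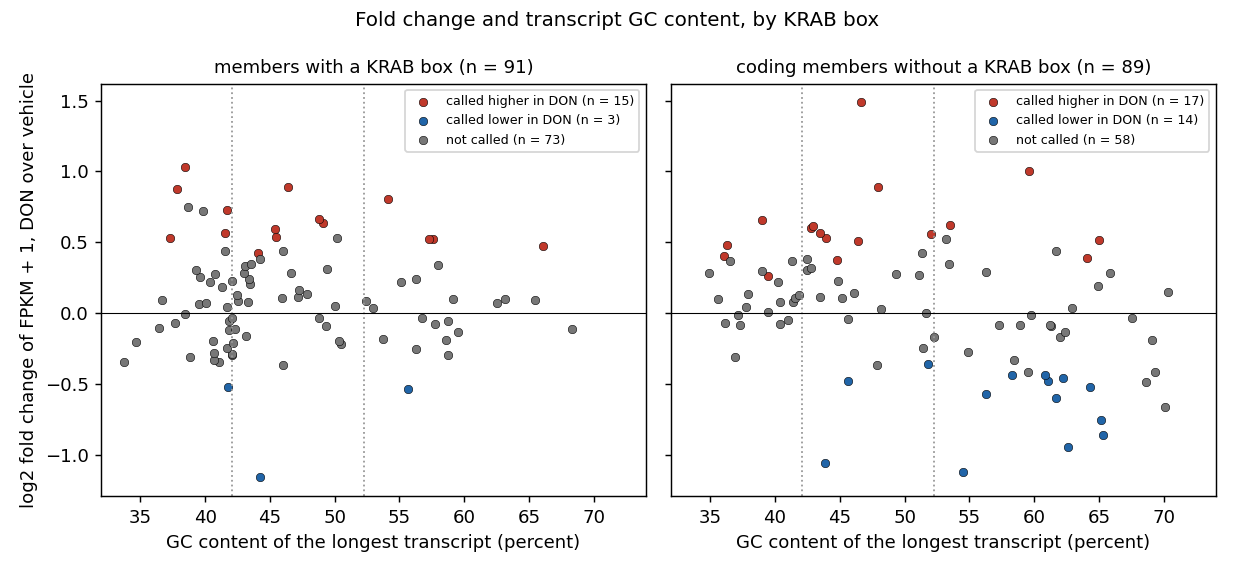
GC content of the longest transcript (percent) against the log2 fold change of FPKM + 1, DON over vehicle, for 91 members with a KRAB box (left) and 89 coding members without one (right); dotted lines mark the bounds of the GC groups at 42.1% and 52.3%. Blue points (called lower) number 3 on the left and 14 on the right, where 11 lie above 52.3%.

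By place, 46 members lie on chromosome 19 in the RefSeq table. Of these, 4 (8.70%) were higher and 4 (8.70%) lower, with a median log2 fold change of -0.01. Of the 138 on other chromosomes 30 (21.7%) were higher and 13 (9.42%) lower, with a median of 0.11. Shares over all tested genes were 18.3% higher and 20.6% lower. Of the KRAB members, 3 of 32 on chromosome 19 were higher and 1 lower, and 12 of 59 elsewhere were higher and 2 lower, with no test of the difference. Between the number of fingers and the log2 fold change Spearman's rho was -0.01 across 180 coding members. At 3 to 7 fingers 9 of 59 members were higher and 3 lower, at 8 to 12 fingers 11 of 56 and 7, and at 13 or more fingers 7 of 45 and 4. The shares higher were 15.3%, 19.6% and 15.6%, and the shares lower 5.08%, 12.5% and 8.89%.

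Promoter windows from RefSeq (GRCh38.p14, 250 bases before to 50 after each start) matched 153 of the 184 members. The letters CCGGAAG on either strand, the core preferred by many ETS factors, occurred in 63 of 153 member windows (41.2%), against 10.7% of all 27305 windows and 21.3% of those of other genes of the same level rule. The share was 46.8% in KRAB members and 35.1% in the others. It was 10 of 23 among members called higher and 6 of 15 among those called lower. CCAAT, the letters read by NF-Y, occurred in 40.5% of member windows on either strand, against 35.7% of all windows and 37.0% of those of other genes of the same level rule. TGACGTCA, the palindrome read by CREB and ATF factors, occurred in 7.84%, against 1.98% and 3.47%. It occurred in 0 of 23 windows of members called higher and in 2 of 15 of those called lower. TGATGNAA, the letters read by ATF4 with C/EBP partners, occurred in 1.31% of member windows, against 3.67% of all windows and 1.58% of those of other genes of the same level rule, and in 0 of the 38 windows of called members. None of these motifs contains another, and a match describes letters and not a bound site.

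Windows that hold or lack these letters are shown for called members of both directions and for ZNF664, the highest. Each sequence is the 250 bases before the start on the gene's strand, 5′ to 3′, from RefSeq GRCh38.p14, and capitals mark CCGGAAG or CCAAT or their reverse complements. ZNF181, ZNF277, ZNF37A and ZNF664 were higher in DON, and ZNF335 and ZNF367 lower. ZNF181 entered through DON alone and ZNF335 and ZNF367 through vehicle alone, so the directions of these were built into their choice.
ZNF181, chr19:34733993-34734242, plus strand: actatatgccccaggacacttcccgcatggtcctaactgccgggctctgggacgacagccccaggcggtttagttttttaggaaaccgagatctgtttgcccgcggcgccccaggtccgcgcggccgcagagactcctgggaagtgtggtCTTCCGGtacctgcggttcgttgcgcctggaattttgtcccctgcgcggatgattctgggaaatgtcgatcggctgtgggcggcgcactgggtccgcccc
ZNF277, chr7:112206445-112206694, plus strand: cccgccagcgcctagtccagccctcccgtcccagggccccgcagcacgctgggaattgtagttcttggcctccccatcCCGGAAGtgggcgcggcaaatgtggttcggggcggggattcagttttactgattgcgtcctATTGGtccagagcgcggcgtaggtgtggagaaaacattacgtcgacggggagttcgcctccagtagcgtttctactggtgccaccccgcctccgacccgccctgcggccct
ZNF37A, chr10:38094087-38094336, plus strand: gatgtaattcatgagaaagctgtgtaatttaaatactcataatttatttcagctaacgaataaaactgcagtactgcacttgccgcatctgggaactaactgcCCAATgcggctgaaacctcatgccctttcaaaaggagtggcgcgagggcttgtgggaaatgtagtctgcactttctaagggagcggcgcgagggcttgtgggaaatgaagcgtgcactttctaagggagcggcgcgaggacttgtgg
ZNF664, chr12:123972965-123973214, plus strand: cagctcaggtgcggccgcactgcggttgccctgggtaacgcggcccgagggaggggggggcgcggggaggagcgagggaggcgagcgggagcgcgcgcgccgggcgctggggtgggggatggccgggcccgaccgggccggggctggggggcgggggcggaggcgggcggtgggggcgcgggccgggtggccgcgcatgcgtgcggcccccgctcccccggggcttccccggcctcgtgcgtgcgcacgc
ZNF335, chr20:45972204-45972453, minus strand: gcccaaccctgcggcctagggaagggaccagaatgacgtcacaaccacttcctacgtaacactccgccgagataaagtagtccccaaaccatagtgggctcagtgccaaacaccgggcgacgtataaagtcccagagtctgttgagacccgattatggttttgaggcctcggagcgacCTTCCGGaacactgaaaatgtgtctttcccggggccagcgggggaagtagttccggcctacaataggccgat
ZNF367, chr9:96418371-96418620, minus strand: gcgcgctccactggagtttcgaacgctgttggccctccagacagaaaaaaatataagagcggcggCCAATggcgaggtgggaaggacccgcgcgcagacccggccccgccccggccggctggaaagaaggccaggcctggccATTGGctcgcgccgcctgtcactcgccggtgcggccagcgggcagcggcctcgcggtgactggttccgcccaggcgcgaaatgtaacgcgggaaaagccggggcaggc
ZNF181 and ZNF335 each hold 1 CCGGAAG and no CCAAT in these bases, and ZNF277 holds 1 of each. The ZNF335 window also holds TGACGTCA, which is not set in capitals. ZNF367 holds 2 CCAAT and ZNF37A 1, and the window of ZNF664 holds neither in a stretch of 84.4% GC with 39 CpG.

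The remaining called members were not picked out by rank, level or role. The 18 called higher among them ranged in ratio from 1.35-fold (ZNF696) to 1.83-fold (ZNF449). Of the 18, ZNF449, ZNF343, ZNF74 and ZNF862 entered through DON alone, so that a rise was built into their choice. ZNF721, ZNF740, ZNF623 and ZNF770 were also among the 18 and held their calls in each of the 6 fits that left out 1 library. ZNF623 had 10.999, 11.03 and 11.1 FPKM in DON, against 7.05, 7.43 and 6.92 FPKM in vehicle (1.55-fold, adjusted p = 0.00200). ZNF521, a cofactor studied in blood progenitors, had 9.48, 12.4 and 12.02 FPKM in DON, against 6.58, 7.01 and 9.44 FPKM in vehicle (1.47-fold, adjusted p = 0.0398). The lower calls outside the named lists were ZNF672 (1.43-fold, adjusted p = 0.0257) and ZNF574 (1.44-fold, adjusted p = 0.0358). Their groups did not overlap, and non-overlap in total held for 74 of 184 members, 49 with DON higher and 25 with DON lower. Members that entered through 1 group alone could not overlap. Without them non-overlap held with DON higher for 43 of 171 members and with DON lower for 18. Among all tested genes it held for 51.5%, 24.9% with DON higher and 26.5% lower. Among other genes of the same level rule it held for 53.3%, 26.4% higher and 26.9% lower.

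Leaving out 1 library at a time, 17 of the 34 calls of higher and 6 of the 17 calls of lower were held in all 6 fits. The held falls were ZNF488 and ZNF703, and ZNF124, ZNF367, ZNF414 and ZNF689, which entered through vehicle alone, so that a fall was built into their choice. Likewise the held rises included ZNF181 and ZNF37BP, which entered through DON alone, so that a rise was built into their choice. Without DON 2 the counts fell to 18 higher and 7 lower, 9.78% and 3.80% of members, against 10.6% and 12.9% of all tested genes in that fit. KRAB members held 8 higher and 2 lower and coding members without KRAB 9 higher and 5 lower in that fit.

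Other zinc finger families, named by other prefixes, were counted at the same level rule. The background was 18.3% higher and 20.6% lower over all tested genes. Over the other genes of the same level rule it was 19.8% and 21.5%. The 22 ZBTB genes, which pair a BTB domain with C2H2 fingers, held 7 higher (31.8%) and 5 lower (22.7%) with a median log2 fold change of 0.09. The 6 ZSCAN genes held 2 higher and 0 lower (median 0.45), the 12 KLF and SP genes 2 higher and 1 lower (0.01), and the 9 ZFP genes 1 of each (0.01). The 13 ZC3H genes, whose CCCH fingers bind RNA, held 2 of each with a median of -0.25.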

How the data were processed

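Messenger RNA of 6 AsPC-1 samples (3 DON, 3 vehicle) was sequenced after poly(A) selection, with a directional kit per the labels' protocols. The deposited values are FPKM per gene, which the authors made from reads placed by STAR, with hg19 as the build, per the submitters' processing notes. The sources used here do not give the counting tool, annotation or use of strand, so reads of a gene and an overlapping or antisense gene cannot be told apart. The lowest value is 0.01, and 41 rows hold a failure mark in some library, none of them a ZNF row. FPKM keeps no depth; steps of low values put the other 5 libraries at 1.26 to 1.69 times the depth of vehicle 1.

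Genes reaching 1 FPKM in 3 or more of the 6 libraries were tested with limma 3.58.1 (R 4.3.3) on log2(FPKM + 1), with an intensity trend, two-sided, and Benjamini-Hochberg adjustment over 11471 genes at 0.05. The pseudocount of 1 understates the change of low genes; ratios of mean FPKM are given as folds. The fit was tested on simulated data. The members, gene lists and tests were chosen with earlier results of these data known.

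Named members are the 10 largest rises and 10 largest falls among called members without overlap, the 5 of highest level, those on 4 role lists, and those nearest the level threshold; of the KRAB partner list, TRIM28, SETDB1 and up to 8 called genes are named. ZNF672, ZNF574, ZNF696, ZNF449, ZNF721, ZNF740, ZNF623, ZNF770 and ZNF521, and the members of classes and membership groups listed by name, were named after their values were seen. KRAB and SCAN boxes and fingers were found in the longest open reading frame of GENCODE release 29 transcripts by profile search and pattern, not in RefSeq proteins, and GC content was taken from the longest transcript of the same release. Chromosomes and promoters are from RefSeq GRCh38.p14, another build than the table's. The samples were treated as unpaired. The correlations of deviations for replicate numbers 1, 2 and 3 were 0.25, -0.18 and 0.50, which do not settle whether the numbers pair the samples. Alternatives covered the pseudocount, filters, scaling, variance trend, replicate block, GC correction, the library split, left-out libraries and the choice of members.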

Additional observations from a re-analysis of the deposited data

How the results depend on the processing

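The median log2 fold change of the members stayed above 0 and above that of other genes of like level under every alternative run. Counts moved more. With no filter on low values 21 members were called, 14 higher (7.61%) and 7 lower (3.80%), against 5.31% and 5.92% of all tested genes. With a filter of 5 FPKM, which left 112 members, 10 were lower (8.93%, against 21.7%). A term for the split of the libraries, drawn from the deviations seen in these data, gave 78 calls. These were 52 higher (28.3%) and 26 lower (14.1%), against 25.1% and 27.4% of all tested genes. The replicate block, though the numbers do not pair the samples, gave 71 calls, 48 higher and 23 lower. Leaving out 1 library gave 25 to 57 calls, 18 to 40 higher and 7 to 21 lower, the lowest without DON 2, with medians of 0.07 to 0.10 and differences from genes of like level of 0.10 to 0.14. Quantile normalization gave a median of 0.14. The 299 ZNF rows at 1 FPKM or more in at least 3 libraries held 30 lower calls, against 20.6% of all tested genes. Members at 10 FPKM or more held 18 calls, 15 higher and 3 lower, with a median of 0.17 and a difference of 0.17. The number of members at 10 FPKM or more is not given here, so their calls are counts without a share. Leaving out members that share over 20% of their windows, an alternative chosen after seeing the data, gave 32 higher and 15 lower. The cause of these shifts was not tested.

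Signs turned only in genes that were not called, among those named. With GC correction ZNF593 stood at 0.037, ZNF318 at -0.026, ZNF76 at 0.051, ZNF148 at -0.065, ZNF146 at -0.034, ZNF512B at 0.080, ZNF507 at -0.12, ZNF182 at -0.018 and TRIM28 at 0.074. With the split term ZNF426 stood at 0.012, ZNF507 at -0.032 and TRIM28 at 0.00082. ZNF24 stood at 0.0011 with median-of-ratios scaling and ZNF426 at 0.048 with quantile normalization. With 1 library left out ZNF326 ran between -0.15 and 0.012, ZNF24 between -0.0682 and 0.056, ZNF644 between -0.25 and 0.056, ZNF426 between -0.0868 and 0.021, ZNF507 between -0.056 and 0.10, and ZNF182 between -0.083 and 0.20. The 3 samples in each group limit the precision, and depth behind each value is unknown beyond the relative depth given.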
